A study of Danio rerio with 6 samples.

Results

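The genes described here belong to the stress hormone axis of zebrafish and to the targets of its steroid, cortisol. They were chosen by symbol, from a list of 10: pomca, crhb, nr3c1, nr3c2, hsd11b2, hsd20b2, fkbp5, tsc22d3, klf9 and pck1. In the deposited tables, which hold 14791 gene symbols, 9 of the 10 were found. The symbol hsd20b2, a steroid dehydrogenase gene, and its listed synonyms matched none of the 14791, and that gene was not analysed here.

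In fish, the hypothalamus releases corticotropin-releasing hormone, which drives pituitary corticotrophs to release adrenocorticotropic hormone (ACTH), a peptide cut from the pro-opiomelanocortin precursor. ACTH acts on the interrenal gland, the counterpart of the mammalian adrenal cortex, and cortisol from this gland enters cells and binds receptors that move to the nucleus and switch target genes on or off. Enzymes of peripheral tissues inactivate cortisol, and some targets of the receptor, such as fkbp5, dampen the receptor itself.

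Poly(A) RNA was sequenced from pools of whole zebrafish of strain AB at 96 h post fertilization (hpf), each of 18 to 20 animals. The exposed group was given 4500 µg/L of PCB-11 (3,3'-dichlorobiphenyl, a polychlorinated biphenyl with a chlorine on each ring) in DMSO from 24 hpf on, and the control group was given DMSO alone. The chorion of every animal, in both groups, was removed by hand at 24 hpf, and all vials held 5 animals and DMSO at 0.05% v/v. There were 3 PCB-11 pools and 3 DMSO pools. The labels name no added cortisol, stressor or receptor blocker, so the comparison asks how the exposure alone bears on these genes. Whether the 3 pools of a group stem from separate clutches is not stated in the labels. The p-values therefore rest on pool-to-pool spread alone, and some of that spread may be technical. In whole-animal RNA, fewer cells of a type and less RNA per cell cannot be told apart.

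Between 15705712 and 20479751 reads per pool were counted in genes, and 12960 genes had enough reads to be tested. Levels are given as CPM, the usual scaling of counts to the size of the library, here with edgeR's TMM factors. Transcript length does not enter them, so levels are compared between pools and not between genes. Each log2 fold change is the PCB-11 level over the DMSO level, so that a positive value means higher in PCB-11 pools, and its error is a standard error (SE). A gene was called at an adjusted p under 0.05 in edgeR's quasi-likelihood test with Benjamini-Hochberg adjustment over all genes tested.

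None of the 9 genes was called, and none had an unadjusted p under 0.05. Over all genes tested, edgeR called 6 of 12960, or 0.0463%, and 11.8% had an unadjusted p under 0.05. By the quasi-likelihood test of edgeR, the adjusted p of the 9 genes ranged from 0.461 to 0.979. DESeq2 and limma-voom also called none of the 9, with smallest adjusted p of 0.566 and 0.471. DESeq2 called 0.858% of the genes for which it gave an adjusted p. Of the 9 genes, 6 had a higher and 3 a lower fitted level in PCB-11 pools, and their median log2 fold change was 0.12, beside 0.0015 over all genes tested. For none of the 9 did the PCB-11 pools lie wholly above or below the DMSO pools, whereas 19.4% of all genes tested had such groups.

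**Figure D1:**
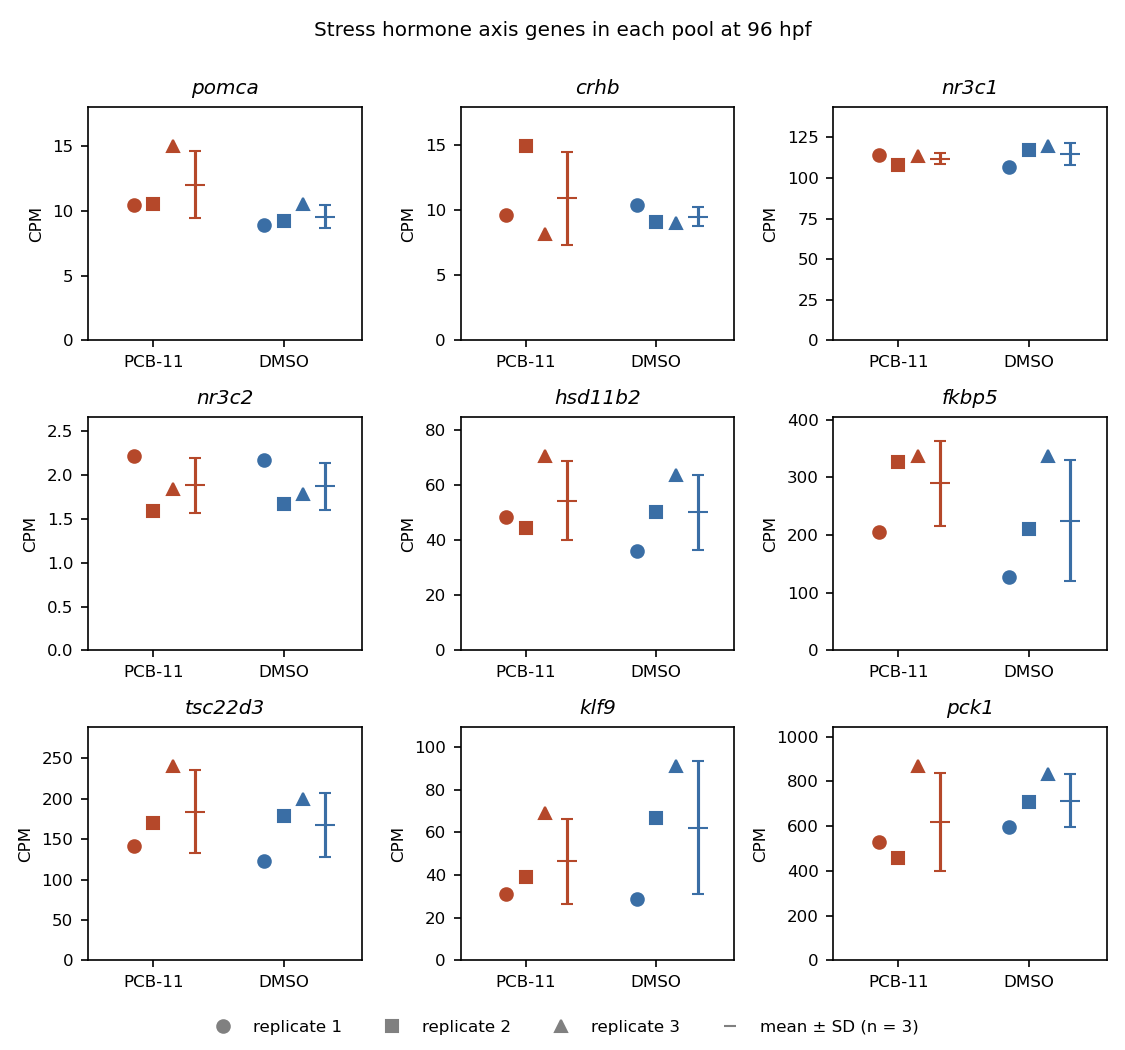
Level of each of the 9 genes in each pool, in CPM, with 1 panel per gene. Points are single pools, with the replicate number given by the marker shape, PCB-11 on the left and DMSO on the right; bars are group means with SD (n = 3 pools each). The points of the 2 groups overlap in every panel, and in every panel the pools of at least 1 group spread more widely than the group means differ. For every gene except pomca and crhb this holds in both groups.

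Among the hormone genes at the top of the axis, pomca had the smallest p of the 9 genes. It encodes the pro-opiomelanocortin precursor of ACTH. Its levels were 10.48, 10.56 and 15.0 CPM in the PCB-11 pools 1, 2 and 3, against 8.88, 9.22 and 10.55 CPM in the DMSO pools 1, 2 and 3. The highest DMSO pool lay between the lower PCB-11 pools, and PCB-11 replicate 3 stood above the other 5. The means were 12.02 ± 2.59 CPM in PCB-11 pools and 9.55 ± 0.88 CPM in DMSO pools (SD, n = 3 each). The log2 fold change was 0.33 ± 0.17 (SE), with a 95% interval of -0.05 to 0.71 and an adjusted p of 0.461 in edgeR's quasi-likelihood test. Leaving out 1 pool gave 0.14 without PCB-11 replicate 3 and up to 0.42 without PCB-11 replicate 1. The gene was counted by 172 to 285 reads in PCB-11 pools and 155 to 207 reads in DMSO pools.

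The hypothalamic releasing hormone gene crhb had 9.61, 14.9 and 8.17 CPM in the PCB-11 pools, against 10.4, 9.12 and 9.02 CPM in the DMSO pools. PCB-11 replicate 2 was the highest of the 6 pools and PCB-11 replicate 3 the lowest, so that the exposed pools enclosed all controls. Its log2 fold change was 0.19 ± 0.21 (SE; 95% interval -0.29 to 0.67; adjusted p 0.714, edgeR's quasi-likelihood test), and without PCB-11 replicate 2 it was -0.10. A list of 12 neuronal marker genes, of which 11 had enough reads, was also highest in PCB-11 replicate 2. Its summed level was 2938, 3760 and 2444 CPM in the PCB-11 pools, against 2695, 2661 and 2519 CPM in the DMSO pools. The part of the neuronal markers in the crhb value was not tested.

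The glucocorticoid receptor gene nr3c1 was among the steadiest genes measured. It had 114, 108 and 113 CPM in the PCB-11 pools, against 107, 117 and 120 CPM in the DMSO pools. The highest pool exceeded the lowest by 1.12-fold, whereas the median gene had 1.43-fold, and the within-group SD of nr3c1 stood at percentile 6.87 of all genes tested. Its log2 fold change was -0.03 ± 0.09 (SE; adjusted p 0.896, edgeR's quasi-likelihood test). The 95% interval of -0.24 to 0.18 is the narrowest of the 9 genes.

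The mineralocorticoid receptor gene nr3c2 encodes the other receptor that binds cortisol in fish. It was read much less deeply, with 26 to 43 reads in PCB-11 pools and 32 to 38 reads in DMSO pools. Its levels were 2.22, 1.597 and 1.84 CPM in the PCB-11 pools, against 2.18, 1.67 and 1.78 CPM in the DMSO pools. Group means were nearly equal, at 1.89 ± 0.31 CPM in PCB-11 pools and 1.88 ± 0.27 CPM in DMSO pools (SD, n = 3 each). The 95% interval of the log2 fold change, -0.51 to 0.55, spans both directions, and in the pool with the fewest reads counting alone gives a coefficient of variation of 19.6%.

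The inactivating enzyme gene hsd11b2, whose product turns cortisol into cortisone, had 48.3, 44.3 and 70.6 CPM in the PCB-11 pools. It had 36.2, 50.4 and 63.7 CPM in the DMSO pools. Replicate 3 was the highest pool of each group, and the groups overlapped almost fully. The means were 54.4 ± 14.2 CPM in PCB-11 pools and 50.1 ± 13.7 CPM in DMSO pools (SD, n = 3 each). Its log2 fold change was 0.12 ± 0.22 (SE; 95% interval -0.39 to 0.62; adjusted p 0.843, edgeR's quasi-likelihood test), and it was negative without PCB-11 replicate 3 (-0.11) or without DMSO replicate 1 (-0.07). Markers of pronephros and ionocytes, which handle salts, summed over 13 genes to 1632, 1471 and 1737 CPM in the PCB-11 pools, against 1673, 1782 and 1781 CPM in the DMSO pools. Of these 13 genes, 5 were highest in replicate 3 of both groups, as hsd11b2 was, beside 16.2% of all genes tested. The part of these markers in the hsd11b2 value was not tested.

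The 4 target genes of the receptor differed more between pools of the same group than between the groups. The gene fkbp5 encodes a co-chaperone that lowers the receptor's affinity for its hormone. It had 205, 326 and 337 CPM in the PCB-11 pools, against 127, 211 and 336 CPM in the DMSO pools. The highest pools of both groups were alike, and the lowest DMSO pool lay 2.65-fold below the highest DMSO pool. For fkbp5 the log2 fold change was 0.36 ± 0.32 (SE; 95% interval -0.36 to 1.09; adjusted p 0.644, edgeR's quasi-likelihood test). It was 0.08 when DMSO replicate 1 was left out and 0.78 when DMSO replicate 3 was.

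The gene tsc22d3 encodes GILZ, a leucine zipper protein that carries part of the anti-inflammatory action of glucocorticoids in mammals. It had 142, 170 and 241 CPM in the PCB-11 pools, against 123, 179 and 200 CPM in the DMSO pools. Replicate 1 was the lowest and replicate 3 the highest in each group. For tsc22d3 the log2 fold change was 0.14 ± 0.22 (SE; 95% interval -0.36 to 0.64; adjusted p 0.812, edgeR's quasi-likelihood test), and it was negative without PCB-11 replicate 3 (-0.10) or without DMSO replicate 1 (-0.04).

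The gene klf9 encodes a zinc finger transcription factor induced by glucocorticoids and by thyroid hormone. It had 31.3, 39.1 and 69.0 CPM in the PCB-11 pools, against 29.0, 66.6 and 91.2 CPM in the DMSO pools. The span was 2.21-fold within the PCB-11 group and 3.15-fold within the DMSO group. DMSO replicate 1 was the lowest pool of all 6, beside the low PCB-11 pools 1 and 2. For klf9 the log2 fold change was -0.42 ± 0.40 (SE; 95% interval -1.33 to 0.49; adjusted p 0.669, edgeR's quasi-likelihood test). It was -0.04 when DMSO replicate 3 was left out and -0.83 when PCB-11 replicate 3 was.

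The gene pck1 encodes phosphoenolpyruvate carboxykinase, the enzyme of gluconeogenesis that glucocorticoids induce in liver. It had 529, 456 and 869 CPM in the PCB-11 pools, against 596, 708 and 834 CPM in the DMSO pools. PCB-11 replicate 3 was the highest of the 6 pools, while PCB-11 replicates 1 and 2 were the lowest. For pck1 the log2 fold change was -0.21 ± 0.23 (SE; 95% interval -0.73 to 0.32; adjusted p 0.723, edgeR's quasi-likelihood test). Leaving out PCB-11 replicate 3 gave -0.53 (adjusted p 0.0877, same test), whereas leaving out PCB-11 replicate 2 gave -0.03 (adjusted p 0.986) and leaving out DMSO replicate 3 gave -0.08 (adjusted p 0.954). The summed level of 15 liver marker genes was 9094, 7505 and 11600 CPM in the PCB-11 pools, against 9621, 8134 and 8848 CPM in the DMSO pools. In the PCB-11 group the liver sum thus ranked the pools as pck1 did, and in the DMSO group it did not; the part of liver content in the pck1 value was not tested.

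**Figure D2:**
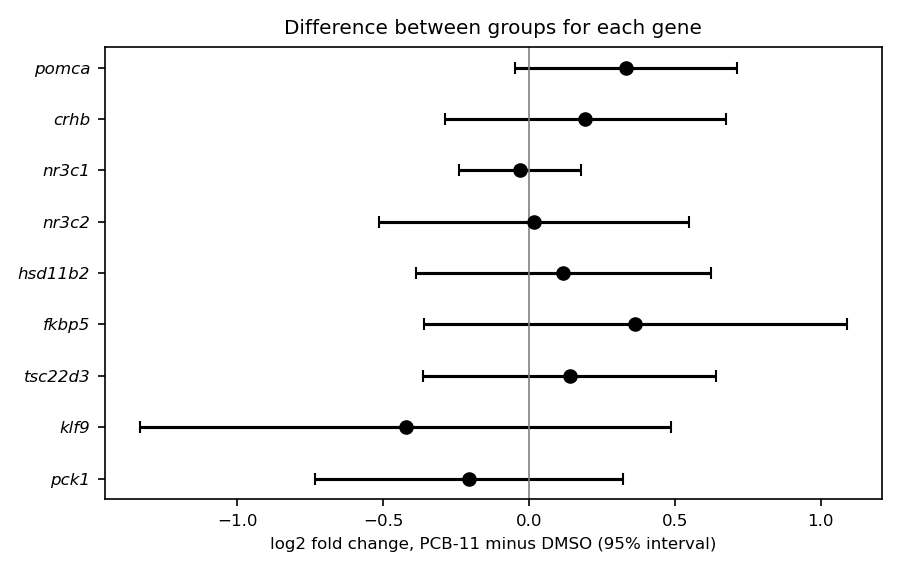
Log2 fold change of each gene, PCB-11 minus DMSO, from edgeR with its 95% interval, with genes down the page in the order of their roles. Every interval includes 0, the narrowest being that of nr3c1 (-0.24 to 0.18) and the widest that of klf9 (-1.33 to 0.49).

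Most of these genes varied more within groups than the usual gene did. The biological coefficient of variation that edgeR fitted was 34% for klf9 and 27.6% for fkbp5, beside a median of 12.2% over all genes tested. These values stood at percentiles 99.1 and 97.7 of all genes tested. For pck1, tsc22d3 and hsd11b2 the coefficients were 20.6%, 19.7% and 19.6%, at percentiles 91.6, 90.1 and 89.8. Counting error was small beside this, at 4.45% for klf9 and 2.13% for fkbp5 in the pool with the fewest reads of each gene. In all, 6 of the 9 genes were in the top quartile of all genes tested by within-group SD of log2 CPM.

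The spread had a shared order. In 6 of the 9 genes, pomca, hsd11b2, fkbp5, tsc22d3, klf9 and pck1, replicate 3 was the highest pool of both groups, and 16.2% of all genes tested had that order. The 3 other genes, both receptors and crhb, did not have it.

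**Figure D3:**
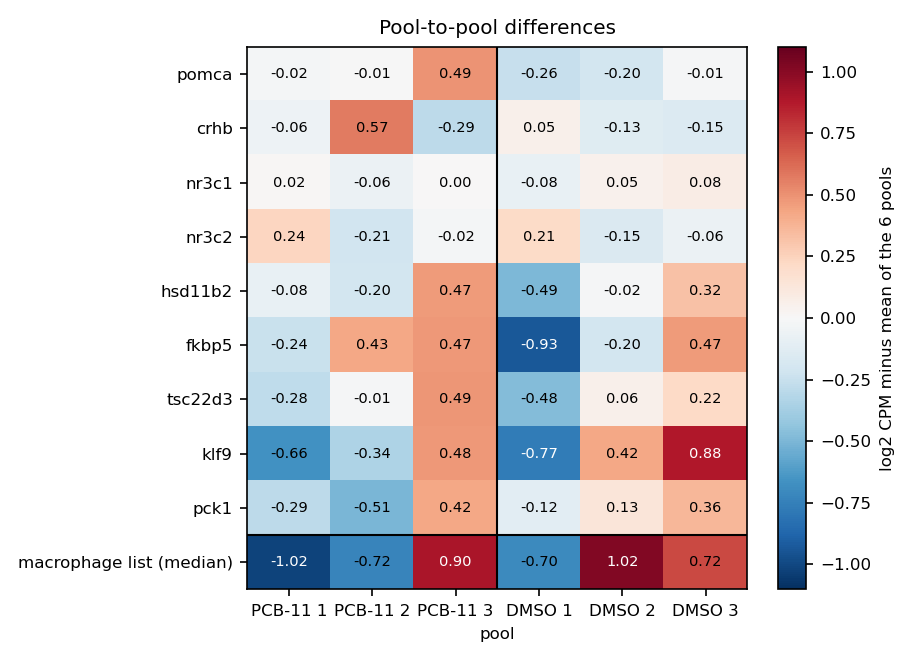
Deviation of each gene's log2 CPM from its mean over all 6 pools, with genes down the page and pools across it, PCB-11 pools on the left and DMSO pools on the right; the last row is the median of the macrophage marker list. The pools of replicate 3 carry the high values of the target genes in both groups, and nr3c1 is near 0 in every pool.

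Markers of macrophages, cells in which glucocorticoid targets are also expressed, also varied among the pools. Of the 12 genes of this list with enough reads, only 1 was highest in replicate 3 of both groups. The median deviation of this list from the mean of all 6 pools was -1.02, -0.72 and 0.90 in the PCB-11 pools, against -0.70, 1.02 and 0.72 in the DMSO pools (log2 CPM). Its summed level was 43.7, 39.2 and 93.1 CPM in the PCB-11 pools and 44.0, 84.1 and 62.0 CPM in the DMSO pools. The list was thus low in PCB-11 replicates 1 and 2 and in DMSO replicate 1, and high in the other 3 pools. Of its 13 matched genes 12 had enough reads, and 10 of those 12 were lower in all of the 3 low pools than in any of the others, which the choice of these pools used. In the same order stood 4 of the 9 genes, hsd11b2, tsc22d3, klf9 and pck1, beside 10.2% of all genes tested. Of the 13 pronephros and ionocyte markers, 5 also stood in that order, so it is not particular to the macrophage list. The part of macrophages, pronephros or ionocytes in the values of the 4 genes was not tested. The gene fkbp5, which varied nearly as widely as klf9, did not have that order, since PCB-11 replicate 2 lay above DMSO replicate 2.

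With the 3 pools low in macrophage markers set as a block, a fit chosen after seeing the data, none of the 9 genes was called. The log2 fold changes were then 0.68 for fkbp5, 0.43 for pomca, 0.34 for tsc22d3 and 0.33 for hsd11b2. Their unadjusted p ranged from 0.0123 to 0.0245 and their adjusted p, by the quasi-likelihood test of edgeR, from 0.326 to 0.367. These 4 of the 9 genes had an unadjusted p under 0.05, beside 12% of all genes tested in that fit. The log2 fold change of klf9 was 0.03 in that fit, and that of pck1 was -0.05. The block was drawn from these data, and hsd11b2 and tsc22d3 follow it, so it takes up part of their within-group spread. It is also uneven between the groups, with PCB-11 replicates 1 and 2 and DMSO replicate 1 low. The p-values of that fit are therefore no support for a difference between the groups.

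Since 6 of the 9 genes had their highest pools in common, the genes were also set against each other within each pool, as the log2 ratio of their counts with 0.5 added to each. Of 36 pairs, 5 had ratios that did not overlap between groups and 31 overlapped, whereas 19.1% of all pairs of genes tested did not overlap. With 3 pools a group, the smallest two-sided p that the exact permutation test over the 20 groupings can give is 0.1. Each of the 5 pairs had this p, and adjusted over the 36 pairs it was 0.72, so no pair passed. The widest difference was that of fkbp5 against klf9, whose log2 ratio was 2.71, 3.06 and 2.29 in the PCB-11 pools, against 2.13, 1.66 and 1.88 in the DMSO pools. The share of pairs that part the groups is thus no result about these genes.

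Other genes of the axis were examined by lists of their roles. Of the 98 with enough reads, edgeR and limma-voom called 0, where edgeR called 0.0463% of all genes tested. DESeq2 called 4 of the 103 list genes with any read, beside 110 of all 14195 genes with any read. Of the 15 matched genes of the hypothalamus and pituitary, 14 had enough reads. Of these, 5 had an unadjusted p under 0.05, all higher in PCB-11 pools, beside 11.8% of all genes tested, and the list's median log2 fold change was 0.25. The lists were chosen with earlier results of these data known, so a list's share beside that of all genes is no test of the list. The gene crhbp, whose product binds corticotropin-releasing hormone and holds it from its receptors, differed most. It had 39.97, 57.1 and 45.9 CPM in the PCB-11 pools, against 29.2, 24.8 and 25.8 CPM in the DMSO pools. All exposed pools lay above all controls. The count of 5 changed with the pool left out. It was 4 without PCB-11 replicate 1, where 13.1% of all genes were under that threshold. The count was 1, crhbp, without PCB-11 replicate 2, DMSO replicate 1 or DMSO replicate 3. In those fits 9.09%, 8.05% and 7.59% of all genes were under the threshold. Without DMSO replicate 2 the count was 2, beside 5.59% of all genes. Without PCB-11 replicate 3, 8 genes were higher and 1 was lower at that threshold, beside 22.8% of all genes in that fit. The list's median was 0.06 without PCB-11 replicate 2.

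The log2 fold change of crhbp was 0.84 ± 0.14 (SE; 95% interval 0.52 to 1.16), with an adjusted p of 0.136 in edgeR's quasi-likelihood test and of 0.00022 in DESeq2. In edgeR the adjusted p was 0.0319 without PCB-11 replicate 3, a fit that called 184 genes in all, and 0.109 to 0.825 when any other pool was left out. With all 6 pools and the replicate number set as a block, edgeR gave an adjusted p of 0.0415, in a fit that called 26 genes in all. The call of crhbp thus depends on the tool, on the pools kept and on the model fitted.

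The peptide hormone genes uts1, avp and ucn3l had the same order of groups. The gene uts1, for urotensin 1, a relative of corticotropin-releasing hormone, had 9.14, 14.1 and 9.01 CPM in the PCB-11 pools, against 6.59, 8.38 and 6.67 CPM in the DMSO pools. The gene avp, for the fish vasopressin precursor, had 2.69, 3.07 and 1.74 CPM in the PCB-11 pools, against 1.72, 1.56 and 1.58 CPM in the DMSO pools. It was counted by only 33 to 52 reads in PCB-11 pools and 30 to 31 reads in DMSO pools. The gene ucn3l, for a urocortin, had 3.87, 6.76 and 3.69 CPM in the PCB-11 pools, against 3.27, 3.18 and 3.06 CPM in the DMSO pools. In all 3 genes PCB-11 replicate 2 was the highest pool, as for crhb, crhbp and the neuronal markers. The adjusted p of the 3 genes ranged by the quasi-likelihood test of edgeR from 0.379 to 0.415. Without PCB-11 replicate 2 the log2 fold changes were 0.33 for uts1, 0.45 for avp and 0.26 for ucn3l, and none of the 3 had an unadjusted p under 0.05. For crhbp the log2 fold change was 0.69 without PCB-11 replicate 2. The median log2 fold change of the neuronal list was 0.20, and its part in the values of these 3 genes and of crhbp was not tested.

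Several pituitary genes gave few reads. Of the pituitary marker genes, 7 had enough reads; lhb was at 0 in all pools, and fshb, pou1f1 and smtla had fewer than 10 reads in every pool. The summed level of the list was 70.8 to 75.1 CPM in PCB-11 pools and 66.8 to 72.3 CPM in DMSO pools. The second pro-opiomelanocortin gene, pomcb, was counted by 6 to 15 reads and was not tested.

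For ACTH reception and steroid synthesis, 11 of 15 matched genes had enough reads, and their median log2 fold change was 0.04. The gene for the ACTH receptor, mc2r, had 1 to 6 reads per pool, and cyp11a1, for the enzyme that opens steroid synthesis, had 4 to 9, so neither was tested. The gene star, for the protein that carries cholesterol into mitochondria, had 8.83, 6.51 and 13.7 CPM in the PCB-11 pools, against 7.62, 7.76 and 8.97 CPM in the DMSO pools. PCB-11 replicate 3 was again the highest pool. At an unadjusted p under 0.05 stood 1 of the 11 genes, no more than the 11.8% of all genes tested: nr5a2, a nuclear receptor of liver and gut, with 11.5, 9.27 and 10.5 CPM in the PCB-11 pools, against 12.9, 13.3 and 12.5 CPM in the DMSO pools (adjusted p 0.407, edgeR's quasi-likelihood test). A list of 11 intestinal marker genes was also low in PCB-11 pools, with a median log2 fold change of -0.47, and its part in the nr5a2 value was not tested.

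Among 10 genes with enough reads for steroid inactivation and interconversion, the median log2 fold change was -0.06 and 1 gene had an unadjusted p under 0.05, again no more than the 11.8% of all genes tested. This was srd5a2a, a steroid 5-alpha-reductase gene, with 32.4, 28.7 and 39.4 CPM in the PCB-11 pools, against 41.8, 41.6 and 41.1 CPM in the DMSO pools (adjusted p 0.4, edgeR's quasi-likelihood test). The controls were nearly equal and all exposed pools were below them. The part of the intestinal markers in the srd5a2a value was not tested. The 14 genes for receptor chaperones and coregulators had a median log2 fold change of -0.01, and 1 had an unadjusted p under 0.05, likewise no more than 11.8%. This was ptges3a, for the p23 co-chaperone that holds the receptor ready for hormone, with 136, 178 and 134 CPM in the PCB-11 pools, against 112, 123 and 116 CPM in the DMSO pools (adjusted p 0.382, edgeR's quasi-likelihood test).

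**Figure D4:**
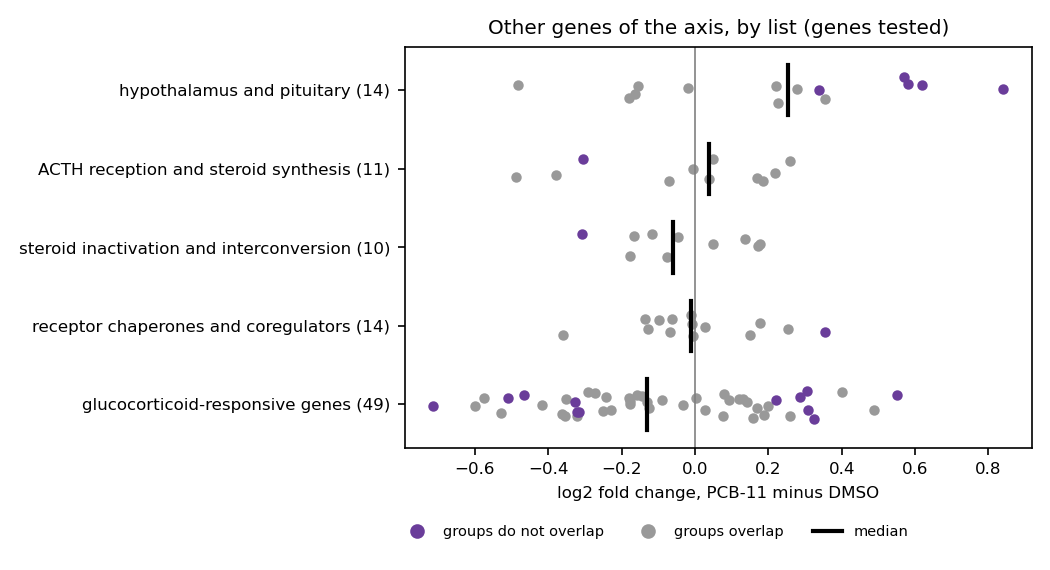
Log2 fold change, PCB-11 minus DMSO, of every gene with enough reads in 5 lists of the axis; bars are list medians and purple points are genes whose groups do not overlap. The hypothalamus and pituitary list has 5 such genes of 14, all on the higher side, and the 49 glucocorticoid-responsive genes have 6 on each side. Of all genes tested, 19.4% had groups that do not overlap.

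Beyond fkbp5, tsc22d3, klf9 and pck1, 49 other genes known to respond to glucocorticoids, mostly from mammals, had enough reads. Of these, 5 were higher and 7 lower in PCB-11 pools at an unadjusted p under 0.05, or 24.5% beside 11.8% of all genes tested, and edgeR called none. The count was 7 higher and 18 lower without PCB-11 replicate 3, where 22.8% of all genes were under that threshold, and 2 higher and 5 lower without DMSO replicate 2, where 5.59% were. Their median log2 fold change was -0.13, but leaving out PCB-11 replicate 1 gave 0.007, leaving out PCB-11 replicate 2 gave 0.01 and leaving out DMSO replicate 2 gave 0.001. The median was -0.299 without PCB-11 replicate 3, -0.214 without DMSO replicate 1 and -0.05 without DMSO replicate 3. By non-overlap of the groups, 6 were higher and 6 were lower, or 12 of 49, beside 19.4% of all genes tested. Genes of this list thus stood on both sides. This list too was chosen with earlier results of these data known, so its shares beside those of all genes are no test of it.

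The 6 with the smallest p included 5 that were lower in exposed pools. The gene lpin1, for a phosphatidate phosphatase of fasting metabolism, had 62.6, 52.9 and 61.8 CPM in the PCB-11 pools, against 77.9, 84.9 and 90.04 CPM in the DMSO pools. Its log2 fold change was -0.51 ± 0.10 (SE), with an adjusted p of 0.217 in edgeR's quasi-likelihood test and of 0.0109 in DESeq2. The gene cdkn1a, for the cell cycle inhibitor p21, had 26.3, 24.3 and 31.9 CPM in the PCB-11 pools, against 36.6, 43.3 and 55.1 CPM in the DMSO pools. Its log2 fold change was -0.71 ± 0.16 (SE), with an adjusted p of 0.281 in edgeR's quasi-likelihood test and of 0.0179 in DESeq2. Without PCB-11 replicate 3, edgeR gave adjusted p of 0.0457 for lpin1 and 0.044 for cdkn1a. Without any other pool it gave 0.208 to 0.825 for lpin1 and 0.29 to 0.825 for cdkn1a. With all 6 pools and the replicate number set as a block, edgeR gave 0.0985 for lpin1 and 0.041 for cdkn1a.

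The circadian repressor gene per1b, a target of the receptor in many tissues, had 154, 141 and 135 CPM in the PCB-11 pools, against 176, 182 and 181 CPM in the DMSO pools. The cryptochrome gene cry3, matched through its synonym, had a log2 fold change of -0.32 ± 0.09 (SE), close to the -0.32 ± 0.10 (SE) of per1b. The aminotransferase gene got1 had 71.1, 52.1 and 77.3 CPM in the PCB-11 pools, against 85.3, 95.3 and 96.5 CPM in the DMSO pools. For per1b, cry3 and got1 the exposed pools all lay below the controls, with adjusted p of 0.321, 0.317 and 0.326 in edgeR's quasi-likelihood test.

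In the other direction hif1al, which was on the list as a responsive gene and encodes a hypoxia pathway protein, had 307, 311 and 355 CPM in the PCB-11 pools, against 201, 230 and 233 CPM in the DMSO pools. Its log2 fold change was 0.55 ± 0.11 (SE), with an adjusted p of 0.217 in edgeR's quasi-likelihood test and of 0.00181 in DESeq2.

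The order of pools seen in klf9 and pck1 recurred in this list. Of the 49 genes, 18 were highest in replicate 3 of both groups and 17 were lower in all of the 3 pools low in macrophage markers than in the other 3. Over all genes tested these shares were 16.2% and 10.2%. Among the 17, named after their values were seen, were the kinase gene sgk1, the inflammatory regulators cebpd, socs1a, socs3a, nfkbiaa and nfkbiab, the muscle ubiquitin ligases fbxo32, trim63a and trim63b, and the metabolic genes tat, pck2 and pdk2b. The glucose-6-phosphatase gene g6pca.2 had 236, 206 and 420 CPM in the PCB-11 pools, against 258, 391 and 452 CPM in the DMSO pools. For sgk1 the levels were 96.6, 123 and 152 CPM in the PCB-11 pools, against 105, 150 and 156 CPM in the DMSO pools. In both genes PCB-11 replicates 1 and 2 and DMSO replicate 1 were the 3 lowest pools.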

How the data were processed

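The authors deposited 1 table per pool of raw counts, whole numbers of reads per gene symbol. The submitters' processing notes name danRer7 and Cufflinks without a role. The sources used here do not give the aligner, counter, strand setting or annotation, so overlapping genes and near-identical copies are uncertain. Reads outside genes (31.4% to 39.1%) and ambiguous reads (0.379% to 0.429%) were left out of library sizes. No pool repeated another.

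Counts were fitted with edgeR 4.0.16 in R 4.3.3 (default expression filter, TMM, robust quasi-likelihood fit, group only, two-sided F test). Of 14791 genes, 12960 were kept. SE was derived from the F statistic and 95% intervals from the fit's degrees of freedom. DESeq2 1.42.0, limma 3.58.1 (voom), other scalings and filters, a replicate block and each pool left out were alternatives. The genes and lists were chosen with earlier results of these data known. From each pathway list the text gives genes with the smallest p, up to 4, or 6 for responsive genes; others are in the lists' counts. Of 227 list entries 199 matched, 7 through RefSeq synonyms. Coordinates, promoter motifs and sequences were not used here.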

Additional observations from a re-analysis of the deposited data

How the results depend on the processing

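None of the 9 genes was called under any of 15 alternatives. Of their 135 log2 fold changes, 124 kept their direction and 11 reversed. No scaling reversed one, and scaling moved the median of all genes by at most 0.003. Leaving out 1 pool gave log2 fold changes of -0.12 to 0.13 for nr3c2, -0.10 to 0.36 for crhb, -0.11 to 0.33 for hsd11b2, -0.10 to 0.30 for tsc22d3, -0.08 to 0.001 for nr3c1, 0.14 to 0.42 for pomca, 0.08 to 0.78 for fkbp5, -0.83 to -0.04 for klf9, -0.53 to -0.03 for pck1 and -0.074 to 0.471 for star. With the pools low in macrophage markers as a block, nr3c2 had -0.044 and klf9 0.031. Over all genes, edgeR called 6, DESeq2 110, limma-voom 0 (1540 at an unadjusted p under 0.05), edgeR with the replicate block 26, and edgeR without 1 pool 0 to 184. Of the pathway list genes, edgeR called 0, DESeq2 4 (crhbp, lpin1, hif1al and cdkn1a), the replicate block 2 (crhbp and cdkn1a) and leaving out 1 pool 0 to 3; the cause was not tested. The labels do not say that replicate numbers mark a shared clutch or day, and the deviations of same-numbered pools from their group means correlated across genes at 0.26, -0.15 and 0.37, which does not show pairing and does not show its absence. With the replicate block 3 of the 9 genes had an unadjusted p under 0.05, beside 13.8% of all genes tested in that fit. These were fkbp5 (0.44, p 0.014, adjusted p 0.254, edgeR), klf9 (-0.36, p 0.0337, adjusted p 0.323, edgeR) and pomca (0.32, p 0.0471, adjusted p 0.356, edgeR). Depth limits nr3c2, avp, mc2r and cyp11a1.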
